A study of Caenorhabditis elegans with 32 samples.

Results

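A set of 45 protein-coding genes of Caenorhabditis elegans was described by the small RNAs that were counted on them in gonads. Small RNAs of all 45 passed a minimum level in the 3 wild-type libraries that chose them and were low in long-term meg-3;meg-4 double mutants. They were also low in genetically wild-type F2 worms whose grandmother was such a mutant. The members were chosen from 46779 counted features by these levels, so the levels in the libraries that chose them are a description and were not tested. Levels are CPM, the count of a gene per 1000000 counts assigned to features in a library. A member had at least 20 CPM in each of the 3 wild-type libraries and under 1/8 of their mean in each of the first 2 long-term mutant libraries. Its mean in the maternal-cross wild-type F2 was under 1/4 of the wild-type mean. Its mean in pptr-1 mutants was at least 1/2 of the mean of their own wild type. Not all members were low in the wild-type F2 of the other cross: in the paternal-cross wild-type F2 18 of the 45 genes had at least 1/2 of the wild-type level, and 27 had less, as did 9% of the 4777 protein-coding genes that reached 20 CPM in each wild-type library.

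In the C. elegans germline, small RNAs antisense to a gene are made by RNA-dependent RNA polymerases and are loaded onto Argonaute proteins, which silence or protect that gene. Some of these small RNAs pass to the progeny through oocyte and sperm and are made again in the next generation. P granules are RNA-rich germ granules beside the nuclei of germ cells. MEG-3 and MEG-4 are disordered proteins on which P granule assembly in the embryo depends, and PPTR-1 is a regulatory subunit of the phosphatase PP2A that acts on the same granules. A count here is a number of small RNAs assigned to a gene. It is not a transcript level, and in dissected gonads fewer cells of a type and less RNA per cell cannot be told apart.

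All libraries came from dissected gonads of young adults grown at 20 °C that carried mjIs134 II, a transgene in which the germline promoter Pmex-5 drives gfp::h2b::tbb-2 and which makes a green fluorescent protein fused to histone H2B. RNA of 21 libraries was extracted with a column kit. They comprised wild type (strain SX1263), meg-3(tm4259);meg-4(ax2026) double mutants kept for more than 80 generations (strain BFF40), and progeny of crosses between these strains. The paternal cross was an SX1263 hermaphrodite with a BFF40 male, and its wild-type F2, mutant F2 and mutant F15 descendants were sequenced. The maternal cross was a BFF40 hermaphrodite with an SX1263 male, with its wild-type and mutant F2. RNA of 11 libraries was extracted with a phenol reagent, from SX1263 and pptr-1(tm3103) worms (strain BFF39) and from the F6 descendants of SX1263 and BFF39 worms treated with double-stranded RNA against gfp. The gfp treatment was thus shared by both F6 groups. Each group had 3 libraries except the F6 pptr-1 mutants, which had 2. Extraction and experiment coincided and cannot be told apart, so tests were made within an extraction only. Nothing in the labels says that replicate libraries came from separate cultures, so p-values measure the spread between these libraries, which may be technical.

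The third long-term mutant library was shallow, with 126214 counts on features, and the other 31 libraries held 2684285 to 14871375. A floor of 3 counts was 23.8 CPM in the shallow library and 0.202 to 1.12 CPM elsewhere; it covers counting error only. The shallow library held 60 counts over the 45 members and 19 of them were at 0 in it, and it did not serve in choosing them. The deleted genes checked the labels. Small RNAs of meg-3 lay at 0 to 5.9 CPM in the 12 meg mutant libraries and at 9.94 to 29.9 CPM in the 9 wild-type column-kit libraries. For meg-4 the ranges overlapped (0 to 51.1 CPM in mutants, 28.4 to 237 CPM in wild type). For pptr-1 they were 17.2 to 28.6 CPM in the 5 mutant and 34.3 to 52.1 CPM in the 6 wild-type phenol libraries. Column-kit libraries, none of them pptr-1 mutant, reached down to 27.7 CPM, within the mutant range. The 11 germline marker genes summed to 675 to 1500 CPM per library. Summed markers reached 11.4 CPM for body wall muscle (4 genes), 45.01 CPM for intestine (5 genes) and 0.698 CPM for hypodermis (4 genes). For neurons (4 genes) they were 90.98 to 195 CPM. These sums count small RNAs on the marker genes and not their transcripts, so they do not measure the share of a cell type.

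Of 19725 protein-coding genes, 4777 had at least 20 CPM in each wild-type library. Of these, 202 were under 1/8 of the wild-type mean in both deeper long-term libraries, 117 of those were under 1/4 in the maternal-cross wild-type F2, and 48 of those kept at least 1/2 in pptr-1 mutants. After 3 of these were set aside by the rule, 45 remained. All 45 passed the count filter of the tests. At the thresholds, fbxa-216 had 21.2 CPM in its lowest wild-type library and R07H5.9, just outside, had 18.6 CPM. In the higher of both long-term libraries ZK666.1 had 12.42% of the wild-type mean and nex-1, outside, 12.54%. In the maternal-cross wild-type F2 elo-9 had 24.4% and C09F5.1, outside, 25.6%. The ratio of pptr-1 mutants to wild type was 0.505 for nsy-4 and 0.484 for fbxa-90, outside. The set depends on the scale: with CPM rescaled by TMM (trimmed mean of M values), 23 of the 45 met the rule.

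In percent of the wild-type mean, the median member had 6.33% in long-term mutants (range 0.768% to 13.1%) and 13.5% in the maternal-cross wild-type F2 (range 3.41% to 24.4%). Both of these were set by the rule. The mutant F2 of the maternal cross, whose own libraries the rule did not use, had a median of 7.49%, and 43 of 45 members were under 1/4 of the wild-type mean, a level that 9.99% of the 4777 genes had. The mutant F2 of the paternal cross had a median of 26.2% with 21 members under 1/4 (2.89% of the 4777 genes). Its wild-type F2 had a median of 33.2% with 12 members under 1/4 (1.15% of the 4777 genes). In the mutant F15 the median was 25.2% and 22 members were under 1/4 (4.65% of the 4777 genes). The F15 libraries were uneven, with member medians of 40.2%, 24.7% and 6.25%. Over all 4777 genes the medians of these 4 groups were 75.2%, 93.4%, 97.3% and 96.8%. The denominator, the wild-type mean, was used by the rule, so these shares are a description. In phenol wild type, whose libraries the rule also used, the median member had 98.5% of that mean, against 90.1% over the 4777 genes.

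**Figure D1:**
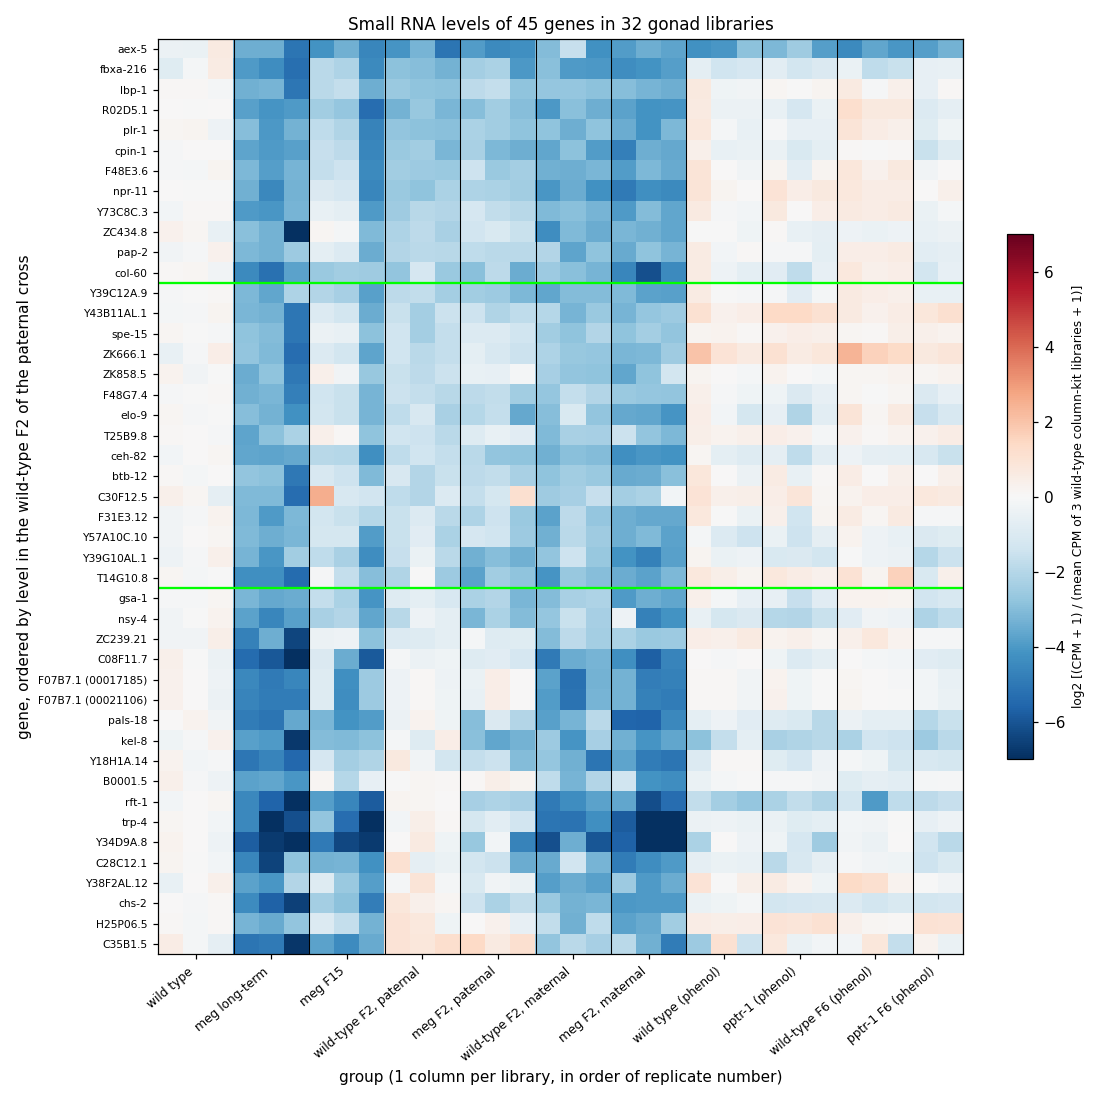
Small RNA level of each of the 45 genes (rows) in each of the 32 libraries (columns), as log2 of CPM + 1 relative to the mean of the 3 column-kit wild-type libraries, blue below and red above it. Green lines divide the genes into 12 under 1/4, 15 between 1/4 and 1/2, and 18 at 1/2 or more of wild type in the paternal-cross wild-type F2. The upper 12 rows are blue in both wild-type F2 groups, and most of the lower 18 are pale in the paternal and blue in the maternal wild-type F2.

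The 18 genes with at least 1/2 of the wild-type level in the paternal-cross wild-type F2 were described first. This grouping was made after the values were seen and was not tested. The gene gsa-1 encodes a stimulatory G protein alpha subunit (chromosome I:1068484-1074343 of WBcel235, plus strand). Its levels were 1009, 1011 and 1152 CPM in wild type, 113, 86.1 and 95.1 CPM in long-term mutants and 328, 230 and 59.4 CPM in the mutant F15. In the paternal cross they were 563, 667 and 494 CPM in the wild-type F2 and 227, 252 and 116 CPM in the mutant F2, and in the maternal cross 127, 217 and 234 CPM and 66.5, 97.7 and 83.4 CPM. Phenol libraries held 1350, 950 and 709 CPM in wild type, 709, 350 and 618 CPM in pptr-1 mutants, 1250, 1251 and 1185 CPM in the wild-type F6 and 417 and 486 CPM in the pptr-1 F6. Every wild-type library of the paternal F2 lay above every library of the maternal one, and both lay below wild type.

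The gene trp-4 encodes a mechanosensory ion channel of the TRPN family (chromosome I:13899085-13914008, plus strand). Its levels were 701, 652 and 550 CPM in wild type, 26.4, 0.959 and 7.92 CPM in long-term mutants and 91.8, 15 and 4.02 CPM in the mutant F15. The paternal F2 held 566, 839 and 673 CPM when wild type and 266, 386 and 249 CPM when mutant, and the maternal F2 17.2, 16.4 and 31.1 CPM and 10.3, 0.861 and 3.68 CPM. It held 482, 489 and 462 CPM in phenol wild type, 464, 353 and 392.2 CPM in pptr-1 mutants, 547, 541 and 618 CPM in the wild-type F6 and 419 and 495 CPM in the pptr-1 F6. The paternal-cross wild-type F2 overlapped wild type, while the highest library of the maternal one was 31.1 CPM. Exons of trp-4 overlap those of Y71A12B.27 and Y71A12B.29 on the other strand, so reads of these genes cannot be told apart without the strand.

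Small RNAs of chs-2, a chitin synthase gene (chromosome II:196985-211941, plus strand), were highest in the paternal wild-type F2. They were 91.7, 85 and 97.3 CPM in wild type, 3.35, 0.822 and 0 CPM in long-term mutants and 17.1, 11.8 and 2.29 CPM in the mutant F15. The paternal F2 held 157, 119.2 and 101 CPM when wild type and 32.5, 18.7 and 26.8 CPM when mutant, and the maternal F2 14.1, 8.39 and 9.1 CPM and 4.66, 5 and 5.02 CPM. All 3 wild-type libraries of the paternal F2 were above all 3 of wild type. In the phenol libraries chs-2 was at 65.5, 73.8 and 82.5 CPM in wild type, 36.7, 40.2 and 42.2 CPM in pptr-1, 45.8, 37.2 and 43.3 CPM in the wild-type F6 and 37.2 and 40.6 CPM in the pptr-1 F6. Both F6 groups and the pptr-1 mutants lay below phenol wild type.

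**Figure D2:**
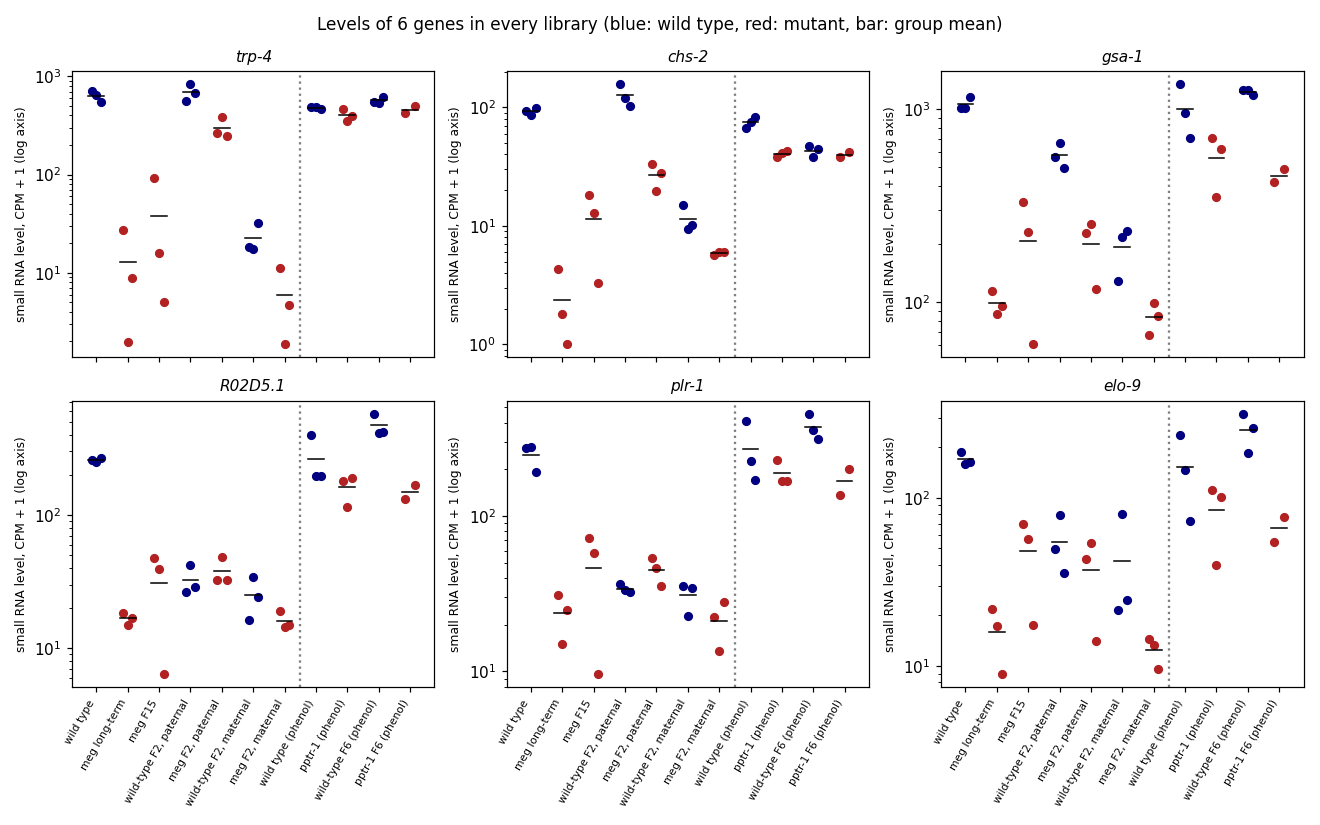
CPM + 1 on a log axis for 6 genes in every library, with each point a library (blue for wild-type, red for mutant genotype), each bar a group mean and the dotted line between column-kit and phenol groups. For trp-4 the wild-type F2 lay at 566 to 839 CPM in the paternal and 16.4 to 31.1 CPM in the maternal cross, while for R02D5.1 both were low, at 25.6 to 40.9 CPM and 15.2 to 33.4 CPM.

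Per kb of exon the wild-type levels of the 45 members ran from 8.28 to 1048 CPM per kb, and the highest were those of both F07B7.1 rows. Of these rows, WBGene00017185 lies on chromosome V at 8872277-8873535 and WBGene00021106 at 8830183-8831441, both on the plus strand. Their counts had a ratio of 0.959 to 1.02 in the 23 libraries with at least 1000 counts over both. Both exon lengths are 924 bases, so the rows behaved as a near-identical pair whose reads cannot be assigned to either copy. The first row held 1181, 980 and 745 CPM in wild type, 41.7, 30.2 and 39.6 CPM in long-term mutants and 521, 49 and 169 CPM in the F15. The paternal F2 was at 752, 1031 and 750 CPM when wild type and 690, 1319 and 991 CPM when mutant, and the maternal F2 at 70.6, 25.4 and 98.5 CPM and 97.9, 33.4 and 35.8 CPM. It held 1042, 1007 and 813 CPM in phenol wild type, 1153, 801 and 950 CPM in pptr-1 mutants, 1057, 970 and 930 CPM in the wild-type F6 and 855 and 676 CPM in the pptr-1 F6. Mutant and wild-type F2 overlapped within each cross, and the crosses did not overlap. The second row, WBGene00021106, held 1196, 970 and 738 CPM in wild type and 38, 31.7 and 31.7 CPM in long-term mutants, and 518, 46.8 and 168 CPM in the F15. Its F2 values were 765, 1027 and 776 CPM and 683, 1337 and 971 CPM in the paternal cross, wild type first, and 63, 26 and 99.5 CPM and 96.3, 35.1 and 32 CPM in the maternal cross. It held 1026, 1014 and 815 CPM in phenol wild type, 1181, 788 and 935 CPM in pptr-1 mutants, 1102, 982 and 945 CPM in the wild-type F6 and 857 and 701 CPM in the pptr-1 F6. As a copy it adds no independent evidence.

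Further members of this group have no role that could be given here. C08F11.7 (chromosome IV:13637275-13638666) held 769, 609 and 452 CPM in wild type, 13.8, 8.91 and 0 CPM in long-term mutants and 302, 53.3 and 9.51 CPM in the F15. Its F2 held 564, 451 and 487 CPM when wild type and 326, 350 and 267 CPM when mutant in the paternal cross, against 18.6, 55 and 62.3 CPM and 30.1, 10.5 and 24.3 CPM in the maternal cross. Its phenol values were 626, 580 and 611 CPM in wild type, 500, 319 and 381 CPM in pptr-1, 619, 551 and 540 CPM in the wild-type F6 and 352 and 322 CPM in the pptr-1 F6. No library of the maternal F2 came near the paternal F2, and the F15 libraries spread from 9.51 to 302 CPM.

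B0001.5 (chromosome IV:12141165-12143331) held 703, 518 and 435 CPM in wild type, 39.9, 42.8 and 31.7 CPM in long-term mutants and 597, 138 and 368 CPM in the F15. The paternal F2 was at 552, 618 and 589 CPM when wild type and 575, 748 and 631 CPM when mutant, and the maternal F2 at 163, 57.6 and 132 CPM and 211, 29.5 and 26 CPM. Phenol wild type and pptr-1 held 394, 503 and 546 CPM and 516, 513 and 457 CPM, and the F6 held 308, 355 and 334 CPM when wild type and 503 and 518 CPM when mutant. It was among the genes with a full level in both genotypes of the paternal F2, and 1 mutant library of the maternal F2, at 211 CPM, stood above the other two.

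Y34D9A.8 (chromosome I:1050651-1053826) lies within 100 kb of gsa-1 and overlaps exons of glrx-10 on the other strand. Its levels were 467, 405 and 310 CPM in wild type, 6.33, 2.74 and 0 CPM in long-term mutants and 11.8, 3.84 and 2.83 CPM in the F15. In the paternal F2 it held 397, 601 and 320 CPM when wild type and 61.8, 347 and 14.7 CPM when mutant, and in the maternal F2 4.52, 36 and 5.27 CPM and 6.84, 1.89 and 1.84 CPM. It held 85.4, 394 and 309 CPM in phenol wild type, 317, 171 and 69.9 CPM in pptr-1 mutants, 328, 298 and 406 CPM in the wild-type F6 and 153 and 106 CPM in the pptr-1 F6. Its mutant F2 libraries of the paternal cross ran from 14.7 to 347 CPM, so 1 library carried most of that mean.

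C28C12.1 (chromosome IV:8501682-8502981) held 202, 170 and 149 CPM in wild type, 6.33, 0.959 and 23.8 CPM in long-term mutants and 16.5, 17.1 and 8.14 CPM in the F15. The paternal F2 held 365, 114 and 125.2 CPM when wild type and 69.3, 59.8 and 15 CPM when mutant, and the maternal F2 14.1, 68.5 and 17.1 CPM and 4.97, 7.58 and 10.2 CPM. It held 110, 127 and 122 CPM in phenol wild type, 46.3, 79.8 and 111 CPM in pptr-1 mutants, 164, 146 and 142 CPM in the wild-type F6 and 63.7 and 82.2 CPM in the pptr-1 F6. The paternal-cross wild-type F2 did not overlap its mutant F2, and 1 of its libraries, at 365 CPM, stood well above wild type.

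The riboflavin transporter gene rft-1 (chromosome V:4438932-4443223) and the kelch-repeat gene kel-8 (chromosome V:2671455-2688513) kept a full level in the paternal wild-type F2 and had a low one in its mutant F2. For rft-1 the levels were 151, 178 and 186 CPM in wild type, 6.71, 2.6 and 0 CPM in long-term mutants and 10.8, 6.25 and 2.01 CPM in the F15. Its paternal F2 held 197, 189 and 173 CPM when wild type and 33.4, 37.9 and 33.3 CPM when mutant, and its maternal F2 4.52, 7.37 and 11.8 CPM and 13.1, 1.38 and 3.35 CPM. The paternal genotypes were far apart, and both lay above the maternal F2. In phenol rft-1 was low in wild type too, at 51.5, 32.7 and 25.4 CPM, and held 35.9, 51.2 and 38.9 CPM in pptr-1, 70.9, 9.91 and 49.9 CPM in the wild-type F6 and 47.3 and 56 CPM in the pptr-1 F6.

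For kel-8 the levels were 86.1, 103 and 134 CPM in wild type, 6.71, 6.03 and 0 CPM in long-term mutants and 12, 11.8 and 13.9 CPM in the F15. Its paternal F2 held 98.9, 57.7 and 147 CPM when wild type and 13.5, 7.87 and 10.1 CPM when mutant, and its maternal F2 17.5, 5.31 and 20.8 CPM and 9.63, 5.34 and 7.87 CPM. It held 13.9, 32.9 and 66.2 CPM in phenol wild type, 21.4, 24.5 and 26.8 CPM in pptr-1 mutants, 22.5, 42.6 and 38.4 CPM in the wild-type F6 and 18 and 28.6 CPM in the pptr-1 F6. The mutant F2 of the paternal cross overlapped both F2 groups of the maternal cross, and kel-8 exons overlap those of Y45G12B.3 on the other strand.

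C35B1.5 (chromosome IV:4083603-4084209) and H25P06.5 (chromosome I:11306253-11307450) had the highest levels relative to wild type in the paternal wild-type F2, at 201% and 146%. C35B1.5 held 163, 103 and 71.3 CPM in wild type, 2.24, 2.74 and 0 CPM in long-term mutants and 7.38, 4.32 and 8.96 CPM in the F15. Its paternal F2 held 221, 195 and 260 CPM when wild type and 295, 173 and 241 CPM when mutant, and its maternal F2 15.5, 29.3 and 22 CPM and 29.5, 10.2 and 2.85 CPM. Every mutant F15 library lay under 10 CPM, below all 3 mutant F2 libraries of the cross it descends from. The phenol libraries of C35B1.5 were uneven, at 18.7, 238 and 38.7 CPM in wild type, 191, 80.8 and 96.7 CPM in pptr-1, 99.9, 193 and 34.5 CPM in the wild-type F6 and 134 and 82.2 CPM in the pptr-1 F6.

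H25P06.5 held 122, 102 and 120 CPM in wild type, 11.2, 9.18 and 15.8 CPM in long-term mutants and 58.5, 35.2 and 10.5 CPM in the F15. Its paternal F2 held 222, 189 and 92 CPM when wild type and 117, 140 and 78.1 CPM when mutant, and its maternal F2 34.2, 10.5 and 32.6 CPM and 7.46, 8.96 and 20.8 CPM. It held 164, 155 and 159 CPM in phenol wild type, 222, 210 and 243 CPM in pptr-1, 145, 124.8 and 122 CPM in the wild-type F6 and 231 and 221 CPM in the pptr-1 F6. Both pptr-1 groups lay above both phenol wild-type groups.

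The claudin-like gene nsy-4 (chromosome IV:2323271-2326739), the member nearest the pptr-1 threshold, held 105, 120 and 149 CPM in wild type, 8.2, 4.25 and 7.92 CPM in long-term mutants and 24.6, 28.8 and 8.96 CPM in the F15. Its paternal F2 held 31.7, 95.7 and 77.1 CPM when wild type and 12.7, 25.7 and 14.2 CPM when mutant, and its maternal F2 18.1, 41.6 and 23.6 CPM and 96.3, 3.79 and 5.86 CPM. It held 87.5, 51.7 and 62.5 CPM in phenol wild type, 30.9, 29.7 and 41.2 CPM in pptr-1 mutants, 72.7, 103 and 98.2 CPM in the wild-type F6 and 27.6 and 35.5 CPM in the pptr-1 F6. The first mutant library of the maternal F2, at 96.3 CPM, was the only one of that group above 6 CPM. The other members with 1/2 or more were pals-18, of the pals gene family, Y38F2AL.12, Y18H1A.14 and ZC239.21, at 55.4% to 124% of wild type in the paternal wild-type F2.

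The 12 members under 1/4 of wild type in the paternal wild-type F2 were low in the wild-type F2 of both crosses. By the rule each had at least 20 CPM in every column-kit wild-type library. R02D5.1 (chromosome V:14508249-14509655) held 260, 250 and 268 CPM in wild type, 17.5, 14 and 15.8 CPM in long-term mutants and 46.3, 38.3 and 5.39 CPM in the F15. Its wild-type F2 held 25.6, 40.9 and 27.7 CPM in the paternal and 15.2, 33.4 and 23.5 CPM in the maternal cross, and its mutant F2 31.7, 47.5 and 31.6 CPM and 18, 13.4 and 13.9 CPM. It held 400, 195 and 196 CPM in phenol wild type, 179, 114 and 189 CPM in pptr-1 mutants, 576, 413 and 420 CPM in the wild-type F6 and 131 and 167 CPM in the pptr-1 F6. The wild-type F2 of both crosses overlapped, and no F2 library came above 47.5 CPM.

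The gene plr-1 encodes a transmembrane ubiquitin ligase that lowers Wnt receptors at the cell surface (chromosome III:11456877-11462897). It held 273, 277 and 190 CPM in wild type, 30.2, 14.1 and 23.8 CPM in long-term mutants and 71.1, 56.7 and 8.59 CPM in the F15. Its wild-type F2 held 35.4, 32.3 and 31.7 CPM in the paternal and 34.7, 21.8 and 33.7 CPM in the maternal cross, and its mutant F2 52.6, 45.5 and 34.5 CPM and 21.4, 12.6 and 26.8 CPM. Phenol libraries held 410, 224 and 171 CPM in wild type, 229, 167 and 168 CPM in pptr-1, 455, 357 and 315 CPM in the wild-type F6 and 135 and 199 CPM in the pptr-1 F6. As for R02D5.1, all F2 libraries were well below wild type and the wild-type F2 of both crosses overlapped. In the mutant F2 of both genes every maternal library lay below every paternal one.

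The other 10 of these 12 had 3.56% to 24.3% of wild type in the paternal wild-type F2. They were the neuropeptide receptor gene npr-11, the collagen gene col-60, the lipid-binding protein gene lbp-1, the F-box gene fbxa-216, the proprotein convertase gene aex-5, and cpin-1, pap-2, F48E3.6, Y73C8C.3 and ZC434.8. Small RNAs of aex-5 were low outside the crosses as well. It held 25.1, 23.4 and 51 CPM in column-kit wild type and 0.823, 1.03 and 3.75 CPM in phenol wild type, 5.63% of the former, and its pptr-1 ratio therefore rests on few counts. Its exons overlap those of str-245 and maph-1.1 on the other strand. Of the 45 members, rft-1, kel-8 and fbxa-216 also had under 1/2 of the column-kit level in phenol wild type (21.3%, 34.9% and 47.6%), so 4 of 45 were low there, as were 0.858% of the 4777 genes.

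The 15 members between 1/4 and 1/2 of wild type in the paternal wild-type F2 included F48G7.4 (chromosome V:619453-621674). It held 236, 237 and 265 CPM in wild type, 22.7, 25.8 and 7.92 CPM in long-term mutants and 92.1, 83.5 and 24.4 CPM in the F15. The paternal F2 held 84.9, 77.2 and 64.1 CPM when wild type and 68.4, 72.9 and 45.1 CPM when mutant, and the maternal F2 36.4, 76.1 and 57.8 CPM and 39.2, 36.2 and 35.3 CPM. It held 317, 232 and 203 CPM in phenol wild type, 200, 123 and 167 CPM in pptr-1 mutants, 270, 241 and 266 CPM in the wild-type F6 and 121 and 162 CPM in the pptr-1 F6. All F2 groups lay below wild type, and 1 wild-type library of the maternal F2, at 76.1 CPM, lay within the range of the paternal one.

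Y57A10C.10 (chromosome II:12440132-12441264) held 197, 236 and 257 CPM in wild type, 26.4, 20.7 and 23.8 CPM in long-term mutants and 97.6, 96 and 14.1 CPM in the F15. The paternal F2 held 77.7, 130 and 48.1 CPM when wild type and 102, 86 and 38.6 CPM when mutant, and the maternal F2 21.2, 61.3 and 40.7 CPM and 20.5, 25.7 and 15.9 CPM. It held 212, 119.2 and 84.2 CPM in phenol wild type, 167, 82.9 and 148 CPM in pptr-1 mutants, 268, 181 and 160 CPM in the wild-type F6 and 113 and 127 CPM in the pptr-1 F6. Its mutant F2 of the maternal cross lay below every F2 library of the paternal cross.

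The fatty acid elongase family gene elo-9 (chromosome II:14959526-14964108), the member nearest the maternal threshold, held 185, 158 and 162 CPM in wild type, 20.9, 16.2 and 7.92 CPM in long-term mutants and 68.8, 55.6 and 16.5 CPM in the F15. The paternal F2 held 48.4, 77.7 and 34.6 CPM when wild type and 42, 52.8 and 13 CPM when mutant, and the maternal F2 20.6, 79.2 and 23.8 CPM and 13.4, 12.4 and 8.54 CPM. Phenol wild type and pptr-1 held 236, 145 and 72 CPM and 111, 39 and 100 CPM, and the F6 held 315, 184 and 258 CPM when wild type and 53.8 and 76.3 CPM when mutant. The maternal-cross wild-type F2 had 1 library at 79.2 CPM, above every library of the paternal F2. Others of the 15 were the homeobox gene ceh-82 and its neighbour within 100 kb, the BTB-domain gene btb-12, and spe-15, a myosin VI gene of spermatogenesis.

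The mutant F2 of both crosses were compared first, which share the meg-3;meg-4 genotype and differ in whether the mutant grandparent was the hermaphrodite or the male. The rule used neither group, but it did use the maternal-cross wild-type F2, which come from the same cross as the maternal mutant F2 and carry the same replicate numbers, so the comparison is not fully independent of the choice of members. Small RNAs of 19 of the 45 members, both F07B7.1 copies among them, fell in the maternal relative to the paternal mutant F2 and none rose, in edgeR's quasi-likelihood test with adjusted p under 0.05. Over all 10230 features, 3.08% were called lower and 1.99% higher. The median log2 fold change of the members was -1.66, against -0.03 for all features, and 43 of 45 members had a negative value. At an unadjusted p under 0.05, 34 members were lower and 0 higher. The share of all features at an unadjusted p was not computed in any comparison, so such counts have no background. DESeq2 called 22 members lower and 0 higher, and 385 lower and 316 higher of all 10230 features. In 37 of 45 members every maternal library was below every paternal one in CPM (23.1% of all features), and in 1, aex-5, every maternal library was above (4.57%). The largest changes were those of trp-4 (log2 fold change -5.82, SE 1.02, edgeR adjusted p = 0.00241), Y34D9A.8 (-5.22, SE 1.04, edgeR adjusted p = 0.00641) and the F07B7.1 row WBGene00021106 (-3.97, SE 0.651, edgeR adjusted p = 0.00136). Of the 18 members with 1/2 or more in the paternal wild-type F2, 14 fell, among them chs-2 (-2.12, SE 0.442, edgeR adjusted p = 0.00826), C08F11.7 and B0001.5. Of the 12 under 1/4 there, 3 fell: col-60, npr-11 and ZC434.8. This division uses libraries paired by replicate number with the paternal mutant F2, so it is a description. R02D5.1 (-1.03, SE 0.442, edgeR adjusted p = 0.213), gsa-1 and plr-1 were not called. Without replicate 3 of the maternal mutant F2 8 members and 228 features were called, and without replicate 4 there were 12 and 295. With all libraries there were 19 and 519. The median of all features moved to -0.29 when libraries were scaled by total counts, where 26 members fell and none rose. In that scaling 638 of all features fell and 159 rose.

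The wild-type and mutant F2 of the paternal cross were compared next, which come from the same cross and differ in meg genotype. Small RNAs of 4 members fell in the mutants and none rose in edgeR's test without a replicate block, where 1.64% of all features were called lower and 0.635% higher. At an unadjusted p under 0.05, with no share over all features computed, 12 were lower and 2 higher. DESeq2 called 5 members lower and 0 higher, and 243 lower and 109 higher of all 10230 features. The called members were kel-8 (log2 fold change -3.21, SE 0.414, edgeR adjusted p = 0.00024), rft-1 (-2.40, SE 0.479, edgeR adjusted p = 0.00916), chs-2 (-2.24, SE 0.403, edgeR adjusted p = 0.0037) and Y39G10AL.1 (-2.15, SE 0.536, edgeR adjusted p = 0.0405). The calls of kel-8 and chs-2 held in all 14 alternative fits. That of rft-1 was lost in 1 of them and that of Y39G10AL.1 in 7. Y39G10AL.1 held 29.1, 64.6 and 24.3 CPM in the wild-type F2 and 7.92, 10.8 and 7.96 CPM in the mutant F2, with no overlap. In all 3 of kel-8, rft-1 and chs-2 the genotypes did not overlap either, as in 14 of 45 members with every mutant library below (7.32% of all features) and 5 with every mutant library above (9.13%), which were ZC434.8, Y73C8C.3, T25B9.8, ZK858.5 and spe-15. Libraries with the same replicate number deviated together. In a fit of these groups alone with that number as a block, 13 members fell and 3 rose (4.18% and 2.19% of all features). In the same fit of these groups alone without the block, 4 fell and 1 rose (181 and 68 of all features). The members that rose in the blocked edgeR test were ZK858.5 (log2 fold change 1.30, SE 0.192, adjusted p = 0.00967), ZC434.8 (0.77, SE 0.13, adjusted p = 0.016) and T25B9.8 (0.89, SE 0.192, adjusted p = 0.0421). Those that fell also included gsa-1 (-1.59, SE 0.187, edgeR adjusted p = 0.00419 with the block) and trp-4 (-1.21, SE 0.129, edgeR adjusted p = 0.00289 with the block). Without replicate 4 of the mutant F2 2 members and 116 features were called in the unblocked test, against 4 and 233 with all libraries.

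**Figure D3:**
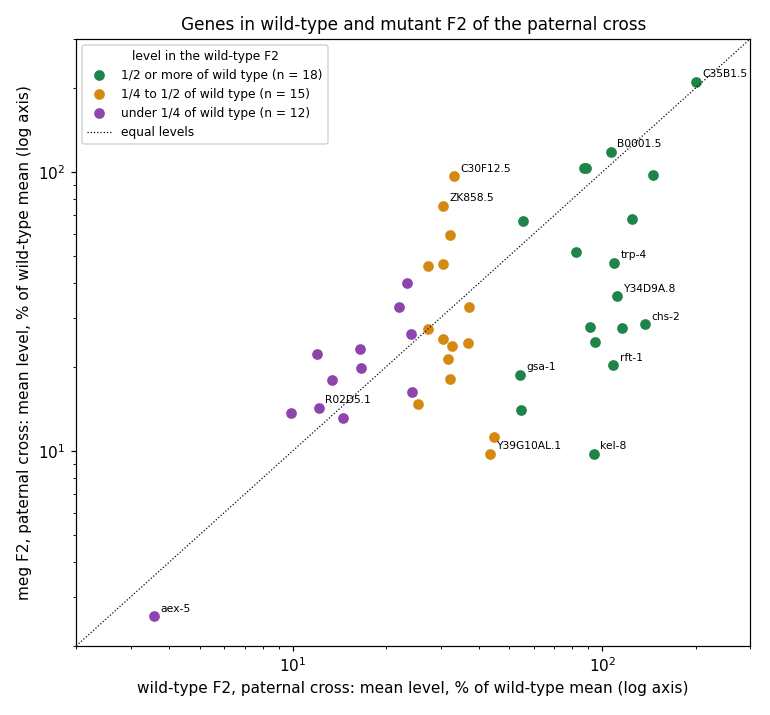
Mean small RNA level of each of the 45 genes in the wild-type F2 (horizontal) and the mutant F2 (vertical) of the paternal cross, in percent of the wild-type mean on log axes, coloured by the level in the wild-type F2, with the dotted line at equal levels. Genes at 1/2 or more of wild type in the wild-type F2 lay below the line in 13 of 18 cases (kel-8 at 93.8% and 9.75%) and those under 1/4 in 3 of 12 (R02D5.1, above it, at 12.1% and 14.2%), but the colours divide the genes by the horizontal value, so this division is no finding.

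The mutant F15 descend from the paternal cross and were compared with the mutant and the wild-type F2 of that cross. Against the mutant F2, 3 members fell and none rose (0.743% and 0.166% of all features) in edgeR's test. At an unadjusted p under 0.05, with no share over all features computed, 12 were lower and 1 higher. DESeq2 called 8 members lower and 0 higher, and 132 lower and 55 higher of all 10230 features. The 3 called by edgeR were C35B1.5 (log2 fold change -5.06, SE 0.576, edgeR adjusted p = 0.000268), Y34D9A.8 (-4.63, SE 0.961, edgeR adjusted p = 0.0234) and rft-1 (-2.56, SE 0.505, edgeR adjusted p = 0.0164). All F15 libraries were below all mutant F2 libraries in 9 members (6.34% of all features) and above in 0 (4.45%). The F15 libraries were uneven: the third was the lowest for 37 of 45 members, with a median of 6.25% of wild type against 40.2% and 24.7% in the others. Leaving out the first F15 library gave 10 called members, and leaving out the second or the third gave 1. Over all features these fits called 94, 76 and 74, against 93 with all libraries.

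Against the paternal-cross wild-type F2, 11 members fell in the F15 and none rose (5.07% and 2.8% of all features) in edgeR's test. At an unadjusted p under 0.05, with no share over all features computed, 19 were lower and 4 higher. DESeq2 called 14 members lower and 1 higher, and 588 lower and 361 higher of all 10230 features. The largest changes were those of Y34D9A.8 (log2 fold change -6.24, SE 1.03, edgeR adjusted p = 0.000528), rft-1 (-4.96, SE 0.542, edgeR adjusted p = 8.72e-06) and C35B1.5 (-4.96, SE 0.574, edgeR adjusted p = 1.74e-05). The others were trp-4, C28C12.1, pals-18, chs-2, kel-8, Y38F2AL.12, H25P06.5 and gsa-1, at log2 fold changes of -4.38 to -1.59. All 11 belonged to the 18 members defined by a high level in the same wild-type F2, so that division is no finding. All F15 libraries lay below all of the wild-type F2 in 16 members (10.9% of all features) and above in 0 (7.84%). Without the third F15 library 11 members fell and 8 rose. Of all 10230 features 453 fell and 531 rose in that fit, against 519 and 286 with the library. Among the 45 members the lower calls stayed at 11 and the higher calls went from 0 to 8. The cause of these shifts was not tested. The members that rose were C30F12.5, ZC434.8, T25B9.8, ZK858.5, Y73C8C.3, npr-11, spe-15 and pap-2, at log2 fold changes of 1.12 to 3.15. C30F12.5 held 238, 17.7 and 15.1 CPM in the F15 and 10.9, 8.79 and 19.9 CPM in the wild-type F2, and of the F15 libraries only the first lay above the range of the wild-type F2. For npr-11 the values were 42.8, 37.8 and 2.74 CPM in the F15 and 13.5, 11.4 and 18.2 CPM in the wild-type F2.

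In pptr-1 mutants without gfp treatment, the levels of the members relative to phenol wild type were bounded at 1/2 by the rule and ranged from 0.505 to 1.66 with a median of 0.824. The F6 libraries were not used by the rule. The rule did use untreated pptr-1 mutants and phenol wild type, a step that kept 48 of 117 genes. The F6 comparison of the same mutation is therefore not fully independent of the choice of members. In the pptr-1 F6, small RNAs of 13 members fell and those of 1 rose relative to the wild-type F6 in edgeR's test, where 3.68% of all 10873 features were called lower and 4.06% higher. The median log2 fold change was -0.85 for the members and 0.01 for all features, and 37 of 45 members had a negative value. The members with the largest falls were elo-9 (log2 fold change -2.10, SE 0.55, edgeR adjusted p = 0.0378), R02D5.1 (-1.80, SE 0.371, edgeR adjusted p = 0.013) and nsy-4 (-1.68, SE 0.274, edgeR adjusted p = 0.00359). The others that fell were gsa-1 (-1.59, SE 0.351, edgeR adjusted p = 0.0183), Y39G10AL.1, cpin-1, pals-18, pap-2, C28C12.1, Y39C12A.9, F48G7.4, C08F11.7 and ZC239.21. H25P06.5 rose (0.65, SE 0.146, edgeR adjusted p = 0.0198). Both pptr-1 libraries were below all 3 wild-type libraries in 27 members (13% of all features) and above in 5 (31.1%), which were H25P06.5, B0001.5, C30F12.5, T25B9.8 and Y43B11AL.1. Small RNAs of trp-4, F07B7.1 and plr-1 were not called. Of the members that fell here, 6 were among the 18 with 1/2 or more, 4 among the 15 between, and 3 among the 12 under 1/4 in the paternal wild-type F2.

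The F6 call rests on 2 mutant libraries. Without the library of replicate 2 the median log2 fold change of the members was -0.74, and without that of replicate 3 it was -0.83. Over all features it was 0.006 and -0.004. Each of these fits leaves 1 mutant library. None of the 14 called members held its call in every alternative. With 1 wild-type library left out, 8 or 9 members were called, beside 466 to 614 of all features. With all libraries there were 14 members and 841 features. When libraries were scaled by total counts, the median of all features moved to 0.16 and the split of calls from 441 higher and 400 lower to 680 and 356, while 13 members fell and 2 rose.

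**Figure D4:**
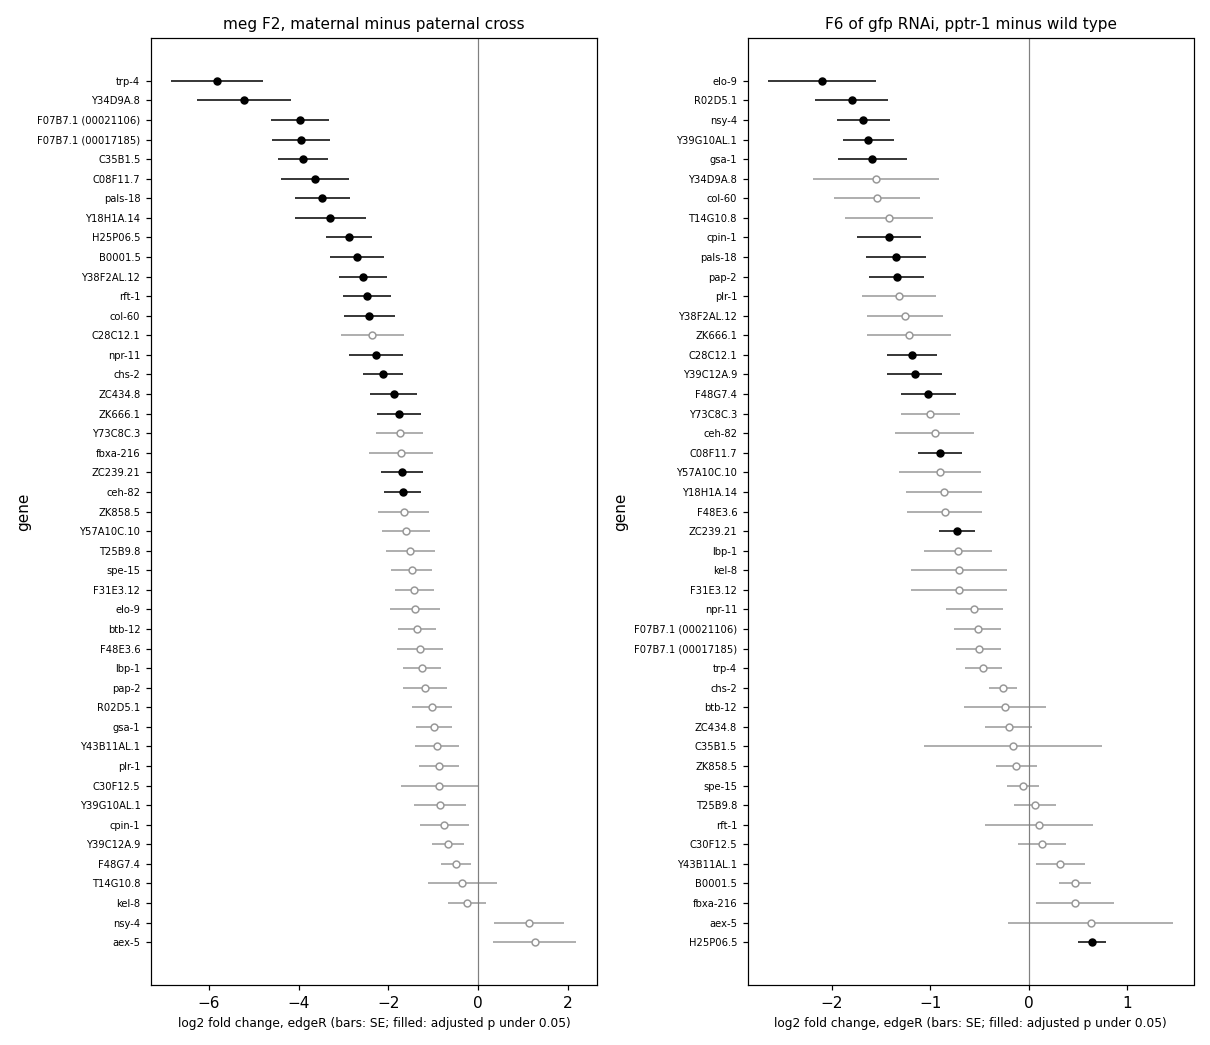
Log2 fold changes of the 45 genes with SE bars from edgeR, ordered by size, for the mutant F2 of the maternal minus the paternal cross (left) and the pptr-1 minus the wild-type F6 (right), filled where the adjusted p was under 0.05. On the left 19 genes are filled, all below 0 and led by trp-4 at -5.82, and on the right 13 are filled below 0 and H25P06.5 above it.

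The genes of the small RNA pathways were looked at in the same tests, as the targets of small RNAs. None of the 45 members was in the lists. Of 21 listed inheritance factors and germline Argonautes, none was called by edgeR in any of the 5 comparisons, with 18 or 19 tested. At an unadjusted p under 0.05, 2 passed in each of the maternal-against-paternal and the F6 comparison and 0 in the others, and DESeq2 called 1, in the former. Another list of 23 held genes of RNA-dependent RNA polymerase and mutator complexes and other genes of RNA interference, sid-1 and rde-11 among the latter. Of these 23, 22 were tested. In the maternal against the paternal mutant F2 small RNAs of 3 fell, ekl-1 (log2 fold change -0.57), smut-1 (-1.16) and mut-15 (-0.58), and 2 rose, the dsRNA channel gene sid-1 (2.70, SE 0.348, edgeR adjusted p = 0.000155) and rde-11 (2.13, SE 0.503, edgeR adjusted p = 0.018). In the F15 against the wild-type F2 3 rose, mut-2 (0.70), mut-15 (0.59) and rde-11 (2.40). In the pptr-1 F6 rrf-2 fell (-0.92) and rde-11 rose (1.03). Of 17 P granule genes only the mutated meg-3 and meg-4 fell, in meg mutants against wild-type F2. In the mutant F2 of the paternal cross their log2 fold changes were -2.40 and -2.98, and in the F15 -2.66 and -4.31.

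By chromosome, 13 lay on I, 8 on II, 3 on III, 11 on IV, 7 on V and 3 on X. Chromosome III held 6.67% of the members and 22.0% of the 4777 genes. The median exon length was 1259 bases for the members and 1684 bases for the 4777 genes. Pairs of members lay within 100 kb of each other at gsa-1 and Y34D9A.8, at nsy-4 and Y38F2AL.12, at ceh-82 and btb-12, and at the F07B7.1 copies. Exons of 12 members overlapped exons of another annotated gene, 10 of them on the other strand, and 33 had no such overlap. Of the 19 members that fell in the maternal against the paternal mutant F2, 13 had no overlap.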

How the data were processed

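Small RNA libraries of dissected gonads were made with a NEBNext small RNA kit, per the labels' protocols. The deposited values are whole-number counts of reads per feature, 1 list per library and not normalized, as the authors made them. Reads were trimmed with cutadapt, checked with FastQC and counted with HTSeq on build ce11, per the submitters' processing notes, which also name DESeq2. Versions, the aligner, the strand setting and the treatment of reads with several matches are not given in the sources used here, so counts of overlapping and near-identical genes are uncertain. Groups came from the labels.

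CPM were computed per 1000000 counts on the 46779 features, of which 46603 had an entry in the WBcel235 annotation (Ensembl release 115, the assembly of ce11), the source of gene types and 1-based coordinates. A promoter, protein or genome sequence was not used here. Tests were made with edgeR 4.0.16 in R 4.3.3 (lists read with data.table, version 1.17.8): a filter that kept 10230 features in the column-kit and 10873 in the phenol libraries (3 or more libraries with 10 counts), TMM scaling, all groups of an extraction in 1 fit, no replicate block, two-sided quasi-likelihood F tests, Benjamini-Hochberg adjustment over all features and a threshold of 0.05. The SE of a log2 fold change was its absolute value over the root of the F statistic. Only the 5 contrasts that use no library of the rule were tested. Libraries of the rule were still in the fit of every contrast, through the scaling and the shared spread. The p-values are therefore not fully independent of the choice of members. The scripts were tested on simulated counts with known changes. Tables used pandas 2.3.3 and numpy 2.4.6, and plots matplotlib 3.10.9, all in Python 3.11.15.

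The wild-type and mutant F2 of the paternal cross have the same replicate numbers, and same-numbered libraries deviated together (r = 0.202, 0.311 and 0.268 over features), so the blocked test, fitted on the 2 groups alone, is given beside that comparison. The members, the gene lists and the markers were chosen with earlier results of these data known. Values in every library are given for the 12 members with the highest wild-type CPM and for the called members with the 3 largest changes in each direction of a comparison. Other members named had their values seen first. Alternatives were another scaling (RLE, total counts), other count filters (none, or at least 50 counts), DESeq2 1.42.0, a fit of the 2 groups alone, that fit with a replicate block, each library left out and other thresholds of the rule. A fit without the shallow long-term library was added after the depths were seen. In the column-kit comparisons, in the order of the Results, it called 462, 200, 72 and 792 features. The members among them were 16, 3, 3 and 11. With that library the numbers were 519, 233, 93 and 805 features and 19, 4, 3 and 11 members. Libraries of a group differed beyond counting noise in all 31 pairs (chi-square over its degrees of freedom was 1.7 to 127), so each was used as 1 sample.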

Additional observations from a re-analysis of the deposited data

How the results depend on the processing

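Of the 45 members, 23 met the rule with CPM after TMM scaling, 11 with both fold thresholds made stricter by a factor of 2, and 38 with the third long-term library included. With the thresholds loosened by the same factor 236 genes met it. Of the 23, 15 fell in the maternal against the paternal mutant F2 and 6 in the pptr-1 F6. No called member changed direction under any alternative run, and the call held in every alternative for 8 of 19, 2 of 4, 1 of 3, 6 of 11 and 0 of 14 called members, in the order of comparisons that follows. The replicate block was fitted only together with a fit of the 2 groups, so its counts are given beside those of that fit without a block. The causes of the changes below were not tested.

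For the maternal against the paternal mutant F2, 519 features (19 members) were called. With total-count scaling 797 features were called (159 higher and 638 lower, against 204 and 315), without a count filter 1250 features and 35 members, and in a fit of the 2 groups 337 features and 14 members without and 332 and 17 with the replicate block. Leaving out 1 library gave 228 to 522 features and 8 to 19 members. For the paternal F2, 233 features (4 members) were called. Without a filter there were 750 features and 15 members, with DESeq2 352 features, and in a fit of the 2 groups 249 features and 5 members without and 652 and 16 with the block, while leaving out 1 library gave 116 to 202 features and 2 to 5 members. For the F15 against the mutant F2, 93 features (3 members) were called. Without a filter there were 546 features and 14 members, with DESeq2 187 and 8, and in a fit of the 2 groups 11 and 1 without and 19 and 1 with the block. Leaving out 1 library gave 41 to 94 features and 1 to 10 members. For the F15 against the wild-type F2, 805 features (11 members) were called. Without a filter there were 1422 features and 24 members, and in a fit of the 2 groups 514 features and 8 members without and 212 and 6 with the block, while leaving out 1 library gave 546 to 984 features and 10 to 19 members. For the F6, 841 features (14 members) were called. Without a filter there were 1688 features and 27 members, with DESeq2 1285 features, and in a fit of the 2 groups 1082 features and 24 members without and 1527 and 33 with the block. Leaving out 1 library gave 183 to 614 features and 0 to 9 members, where the lone remaining mutant library was assumed to vary like the other groups. In the tested comparisons other than the paternal F2 the shared replicate numbers did not pair the libraries (r from -0.123 to 0.0821). In the maternal against the paternal mutant F2, 3 of 6 libraries correlated best with their own number. Pairing of the wild-type with the mutant F2 of the maternal cross was not examined. Depth limits the third long-term library, in which 0 counts allow up to 23.8 CPM.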
